A study of Mus musculus with 10 samples.

Results

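Ribosome biogenesis factors are the proteins that make, modify, cut and fold ribosomal RNA and join it to ribosomal proteins. The set described here holds 44 of them, given as a list of mouse symbols. All 44 were found by Ensembl identifier among the 22373 genes of the footprint count table, and all 44 were among the 13484 genes that passed the minimum of 32 footprints summed over the 2 libraries of at least one stage. Members were matched by symbol and identifier alone, with no measured value in the rule. The list itself, and the gene lists set beside it, were chosen with earlier results of these data known.

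Ribosome profiling (Ribo-seq) sequences mRNA fragments that ribosomes shield from nuclease, so a footprint count reflects how much of an mRNA is present and how many ribosomes sit on it. The tissue was neocortex of wild-type CD-1 mice, dissected at embryonic days E12.5, E14, E15.5 and E17 and on the day of birth, P0, with 2 libraries per stage. Every library was a pool of many brains of either sex, digested with RNAse-T1 and RNAse-A, and no stage received a drug or carried an engineered allele. Total counts ranged from 7544404 in P0 replicate 1 to 36129988 in E14 replicate 2.

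In the nucleolus, RNA polymerase I transcribes a long precursor RNA that small nucleolar ribonucleoproteins (snoRNPs) modify while it is being made. The small subunit processome and the large subunit assembly factors then cut and fold the precursor into the 40S and 60S subunits. This work is known to consume much of the energy of dividing cells, and its rate is tied to growth.

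In cortical tissue, 10 radial glia and progenitor markers summed to between 2291 and 2316 CPM (read counts per 1000000, with library sizes scaled by TMM) at E12.5 and to between 2414 and 2536 CPM at E17, though 8 of the 10 were called lower at E17 and 2 higher, with a median log2 fold change of -1.64. Over the same interval, 10 neuron markers rose from between 2438 and 2502 to between 8560 and 9029 CPM, and 40 cell cycle genes went from between 2866 and 2952 to between 633 and 677 CPM. The E12.5 and E14 libraries also held markers of tissue that borders the cortex. The 10 meninges markers summed to at least 305 CPM there and to at most 65.6 CPM from E15.5 on, and the 10 choroid plexus markers to at least 287 CPM and at most 15.4 CPM, with Slc4a5 and Prlr at 0 at E15.5 and Slc4a5 at 0 at E17. The 10 red blood cell markers summed to between 11214 and 11607 CPM at E12.5, between 7253 and 7260 at E17 and between 1439 and 1862 at P0. Ganglionic eminence markers, with Gsx2 at 0 at E12.5, were at most at 35.5 CPM at E12.5 and at least at 178 CPM at P0, and markers of glia and vessels stayed at or below 81.0 CPM. These levels move along the same stage axis as the members, and their part in the members' values was not tested. In footprints of bulk tissue, fewer cells that make a factor, less of its mRNA per cell and fewer ribosomes on that mRNA cannot be told apart.

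Footprints of the biogenesis factors declined through embryonic development. At E17 against E12.5, 29 of 44 members were lower and 0 were higher, while 27.8% of all genes tested were lower and 26.9% higher. A member counts as changed at a Benjamini-Hochberg adjusted p under 0.05 over all genes tested in limma-voom and an absolute log2 fold change of at least 0.32. The median log2 fold change of the members was -0.58, beside -0.020 over all genes, and 42 of 44 members lay below 0. Both E17 libraries lay below both E12.5 libraries in 41 members, against 41.8% of all genes tested. By other tools 27 members (edgeR) and 28 members (DESeq2) were lower and 0 higher. In limma-voom 29 members had an unadjusted p under 0.05, as did 8142 of all 13484 genes tested. In fits that left out each library in turn, the median of the members ran from -0.64 to -0.54. Of the 29 calls, 19 held in all 10 of these fits. This comparison was added after the data were seen, since the P0 libraries differ from each other.

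Histone genes took between 32.7% and 38.5% of all counts at E12.5 and E14 and between 6.32% and 13.6% at E17 and P0, and the scaling of libraries bears on these counts. With total counts in place of TMM, 12 members were lower and 3 higher at E17 against E12.5, beside 15.9% and 43.6% of all genes. The median of the members then moved to -0.16 and that of all genes to 0.40. Measured from that median, the members stood at -0.56 under either scaling. This is so by construction, since a change of scaling shifts all genes nearly alike, and it is no check of the decline.

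The decline was spread over the embryonic steps. Stage means fell at each step from E12.5 to E17 in 28 of 44 members, against 18.6% of all genes tested. Both E17 libraries were below all 6 earlier libraries in 35 members, against 21.5% of all genes tested. As a share of counts outside histone genes, the members together held 0.548% and 0.493% in the E12.5 libraries, then 0.409% and 0.436% in those of E14, 0.348% and 0.355% in those of E15.5, 0.297% and 0.301% in those of E17, and 0.228% and 0.320% in those of P0. The embryonic stages do not overlap in this share, and the P0 libraries lie on either side of E17. As a share of all counts, histone genes included, E14 (0.266% and 0.293%) and E15.5 (0.283% and 0.294%) do overlap. In that share E12.5 had 0.362% and 0.303%, E17 0.257% and 0.264%, and P0 0.205% and 0.300%. The order of the stages thus depends on the denominator. Npm1 alone made up between 49.4% and 60.1% of the members' summed CPM in the embryonic libraries. Without Npm1 the sum still went from 1699 and 1571 CPM at E12.5 to 1188 and 1201 CPM at E17.

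**Figure D1:**
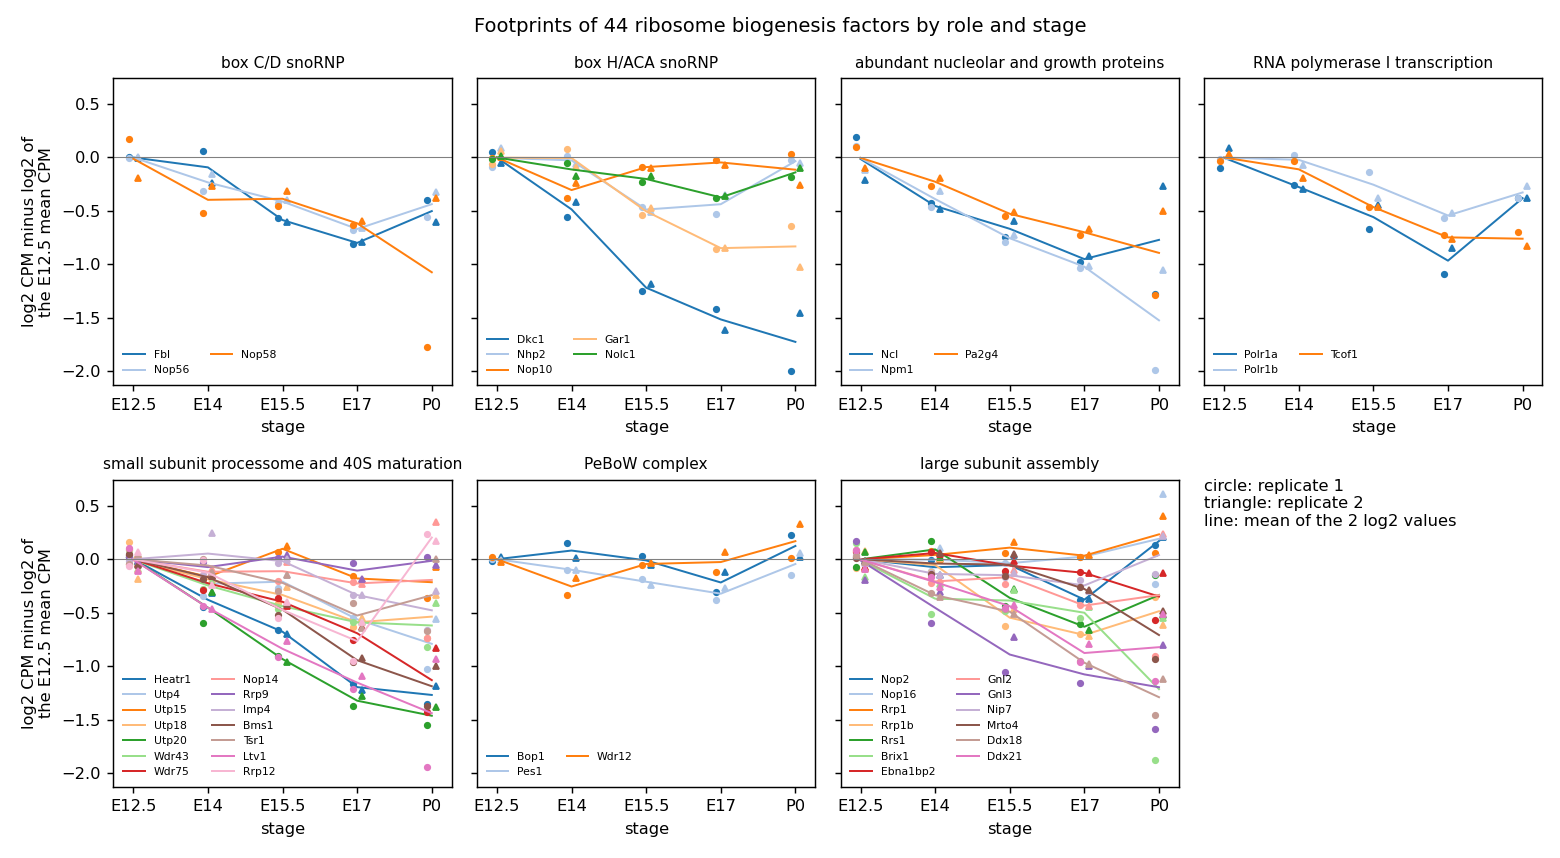
Footprint level of each of the 44 members by stage, as log2 CPM minus the log2 of its mean CPM at E12.5 (vertical axis), in 7 panels by role. Circles are replicate 1, triangles replicate 2 and lines the mean of the 2 log2 values. Most lines descend to E17, Dkc1 and Utp20 furthest, while Nop10, Wdr12, Nop16 and Rrp1 stay near 0, and at P0 the circles and triangles of many members separate.

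No member was called at the step from E12.5 to E14 by limma-voom, edgeR or DESeq2. There 0.141% of all genes were lower and 0.497% higher by limma-voom. An unadjusted p under 0.05 in limma-voom was reached by 5 members and by 2137 of all 13484 genes tested. The median was -0.16, with 39 of 44 members below 0. Without P0 replicate 1, 4 members were lower at this step (3.34% of all genes), and without P0 replicate 2, 3 were (3.22% of all genes). From E14 to E15.5, 7 members were lower and 0 higher in limma-voom, beside 19.6% of all genes lower and 16.5% higher. That is 15.9% of the members, no more than the background. The median was -0.17, or 0.13 with total counts where the median of all genes moved to 0.29. By edgeR 7 were lower and by DESeq2 4, with 0 higher by either. An unadjusted p under 0.05 in limma-voom was reached by 10 members and by 6199 of all genes tested. None of the 7 calls held in every fit that left out a library. Over these fits the median of the members ran from -0.18 to -0.15. From E15.5 to E17, 12 members had an unadjusted p under 0.05 in limma-voom, as did 3458 of all genes tested. Only Ddx18 was called lower and 0 members higher (edgeR 1 lower, DESeq2 0), beside 3.43% of all genes lower and 5.61% higher. Yet the median was -0.26 and 40 of 44 members lay below 0. Without any single library of the 4 embryonic stages the count was 0, and without either P0 library it was 5, beside 8.77% and 9.36% of all genes.

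The change from E14 to E15.5 was also set against the mean of the other 3 steps. A single member differed, Nhp2 at -0.60 on the log2 scale (SE 0.15, adjusted p = 0.0371 in limma-voom), beside 6.08% of all genes lower and 4.89% higher. The median of the members for this contrast was -0.051. The call was lost without any 1 of 7 libraries. Over the fits that left out a single library, the median of the members ran from -0.13 to 0.022.

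Other ribosome biogenesis factors, 106 genes from a separate list, went the same way over the embryonic interval, with 46 lower and 2 higher at E17 against E12.5 and a median of -0.37. Of 79 cytosolic ribosomal protein genes, 62 were lower and 0 higher, with a median of -0.59. Over all genes tested, 27.8% were lower and 26.9% higher. Step by step the lists differed in their medians. Ribosomal proteins had -0.11, -0.42 and -0.054 on the way to E14, E15.5 and E17. At the step to E15.5, 45 of the 79 were lower, beside 19.6% of all genes. The members had -0.16, -0.17 and -0.26 over these steps, and the 106 other factors -0.097, -0.075 and -0.23. The difference between the lists was not tested. The study followed ribosomal proteins in these libraries, so their counts are not independent evidence.

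**Figure D2:**
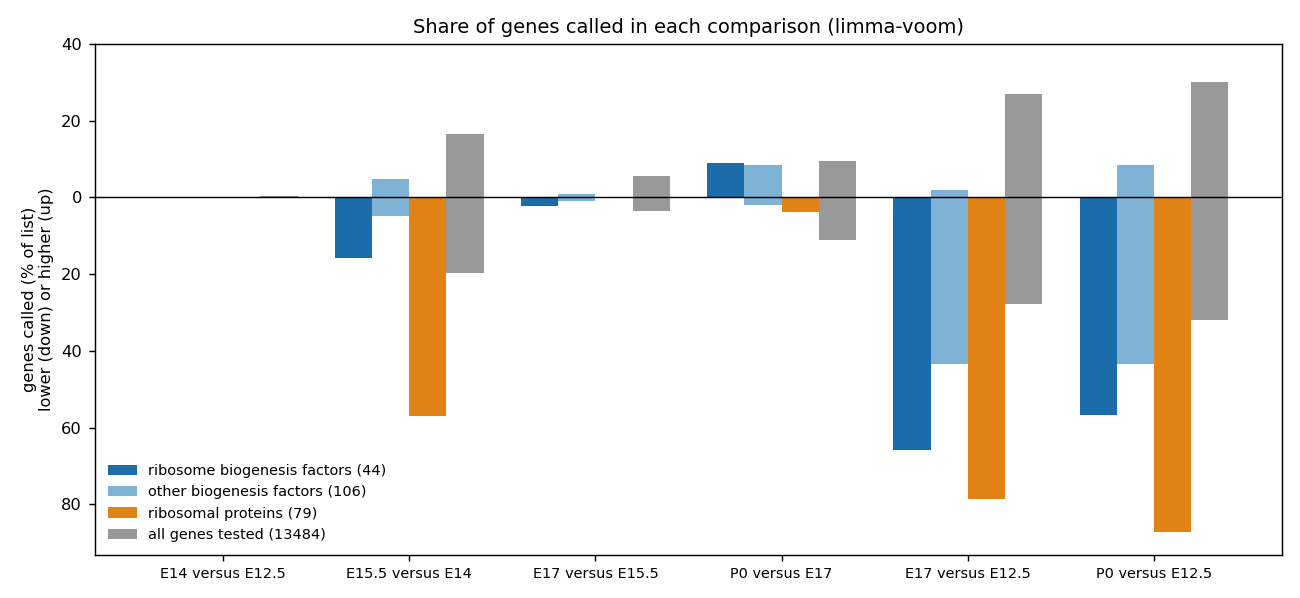
Percent of each list called lower (bars down) or higher (bars up) by limma-voom in 6 comparisons of stages, for the 44 members, 106 other biogenesis factors, 79 ribosomal proteins and all 13484 genes tested. At E17 against E12.5, 65.9% of members were lower beside 27.8% of all genes, and at the step from E14 to E15.5 the ribosomal protein bar reaches 57.0% and the member bar 15.9%.

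Box C/D snoRNPs methylate the sugar of ribosomal RNA, and their core proteins Fbl, the methyltransferase, and Nop56, a scaffold, were lower at E17. Fbl (ENSMUSG00000046865) had 90.2 and 89.9 CPM at E12.5, 93.7 and 76.1 CPM at E14, 60.7 and 59.3 CPM at E15.5, 51.4 and 52.1 CPM at E17, and 68.3 and 59.2 CPM at P0. Its E17 values are the lowest, and its E15.5 and P0 values lie between those of E17 and E14. The E17 against E12.5 log2 fold change was -0.80 (SE 0.12, adjusted p = 0.000729 in limma-voom), and at the step to E15.5 Fbl was also lower, at -0.49 (SE 0.12, adjusted p = 0.0138). Nop56 had 74.1 and 74.3 CPM at E12.5, 59.7 and 66.9 CPM at E14, 55.2 and 56.4 CPM at E15.5, 46.3 and 47.1 CPM at E17, and 50.6 and 59.5 CPM at P0. Its E17 libraries were below all others, at -0.67 against E12.5 (SE 0.11, adjusted p = 0.000984).

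Nop58, the partner scaffold of Nop56, had 148 and 115 CPM at E12.5, 91.6 and 109 CPM at E14, 96.0 and 106 CPM at E15.5, 84.8 and 87.0 CPM at E17, and 38.6 and 101 CPM at P0. Its first P0 library is the lowest of all and its second sits among the E14 and E15.5 values. The E17 against E12.5 value was -0.60 with a 95% interval of -1.41 to 0.21, and it did not pass (adjusted p = 0.184 in limma-voom).

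Box H/ACA snoRNPs turn uridine of ribosomal RNA into pseudouridine, and their catalytic subunit Dkc1, the dyskerin enzyme that also belongs to telomerase, had the largest fall of all 44 members at E17. Dkc1 (ENSMUSG00000031403) had 25.1 and 23.5 CPM at E12.5, 16.5 and 18.3 CPM at E14, 10.2 and 10.7 CPM at E15.5, 9.11 and 7.96 CPM at E17, and 6.09 and 8.90 CPM at P0. Each embryonic stage lies below the one before it with no overlap, and the P0 libraries lie on either side of the lower E17 value. At E17 Dkc1 stood at 0.352 times its E12.5 level, a log2 fold change of -1.51 (SE 0.16, adjusted p = 9.07e-05 in limma-voom). The step from E14 to E15.5 was at -0.74 (SE 0.15, adjusted p = 0.00697), while the step from E12.5 to E14, at -0.48, did not pass (adjusted p = 0.165). The fall to E17 was called whichever of the 10 libraries was left out and under all 10 other settings.

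Gar1, a core H/ACA protein, was also lower, with 24.3 and 26.5 CPM at E12.5, 26.8 and 23.9 CPM at E14, 17.5 and 18.3 CPM at E15.5, 14.1 and 14.2 CPM at E17, and 16.3 and 12.48 CPM at P0. Its level falls between E14 and E15.5 and again to E17, with no overlap, to a log2 fold change of -0.85 at E17 (SE 0.13, adjusted p = 0.000936, limma-voom). Nhp2, another core protein, had 35.5 and 40.1 CPM at E12.5, 38.1 and 36.2 CPM at E14, 27.5 and 26.5 CPM at E15.5, 26.3 and 29.7 CPM at E17, and 37.3 and 36.6 CPM at P0. It was low at E15.5 and E17 and back at the E12.5 range at P0, with -0.44 at E17 against E12.5 (SE 0.11, adjusted p = 0.00848) and 0.40 at P0 against E17 (SE 0.11, adjusted p = 0.0335).

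The fourth core protein, Nop10, went another way, with 173 and 174 CPM at E12.5, 134 and 147 CPM at E14, 163 and 162 CPM at E15.5, 171 and 165 CPM at E17, and 177 and 145 CPM at P0. Its E14 libraries are low and its other embryonic values lie close together, so that E17 against E12.5 gave -0.046 with a 95% interval of -0.30 to 0.21 (adjusted p = 0.740, limma-voom), and 0.37 with total counts. Nolc1, a chaperone of snoRNPs, had 22.7 and 23.3 CPM at E12.5, 22.2 and 20.4 CPM at E14, 19.6 and 20.4 CPM at E15.5, 17.7 and 17.9 CPM at E17, and 20.3 and 21.5 CPM at P0. Its E17 libraries are the lowest of all, at -0.37 against E12.5 (SE 0.095, adjusted p = 0.0102), though at 0.041 with total counts. The Nhp2 call was lost without E12.5 replicate 2 or E17 replicate 1 (adjusted p up to 0.0771) and the Nolc1 call without E12.5 replicate 2 or either E17 library (up to 0.0616).

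**Figure D3:**
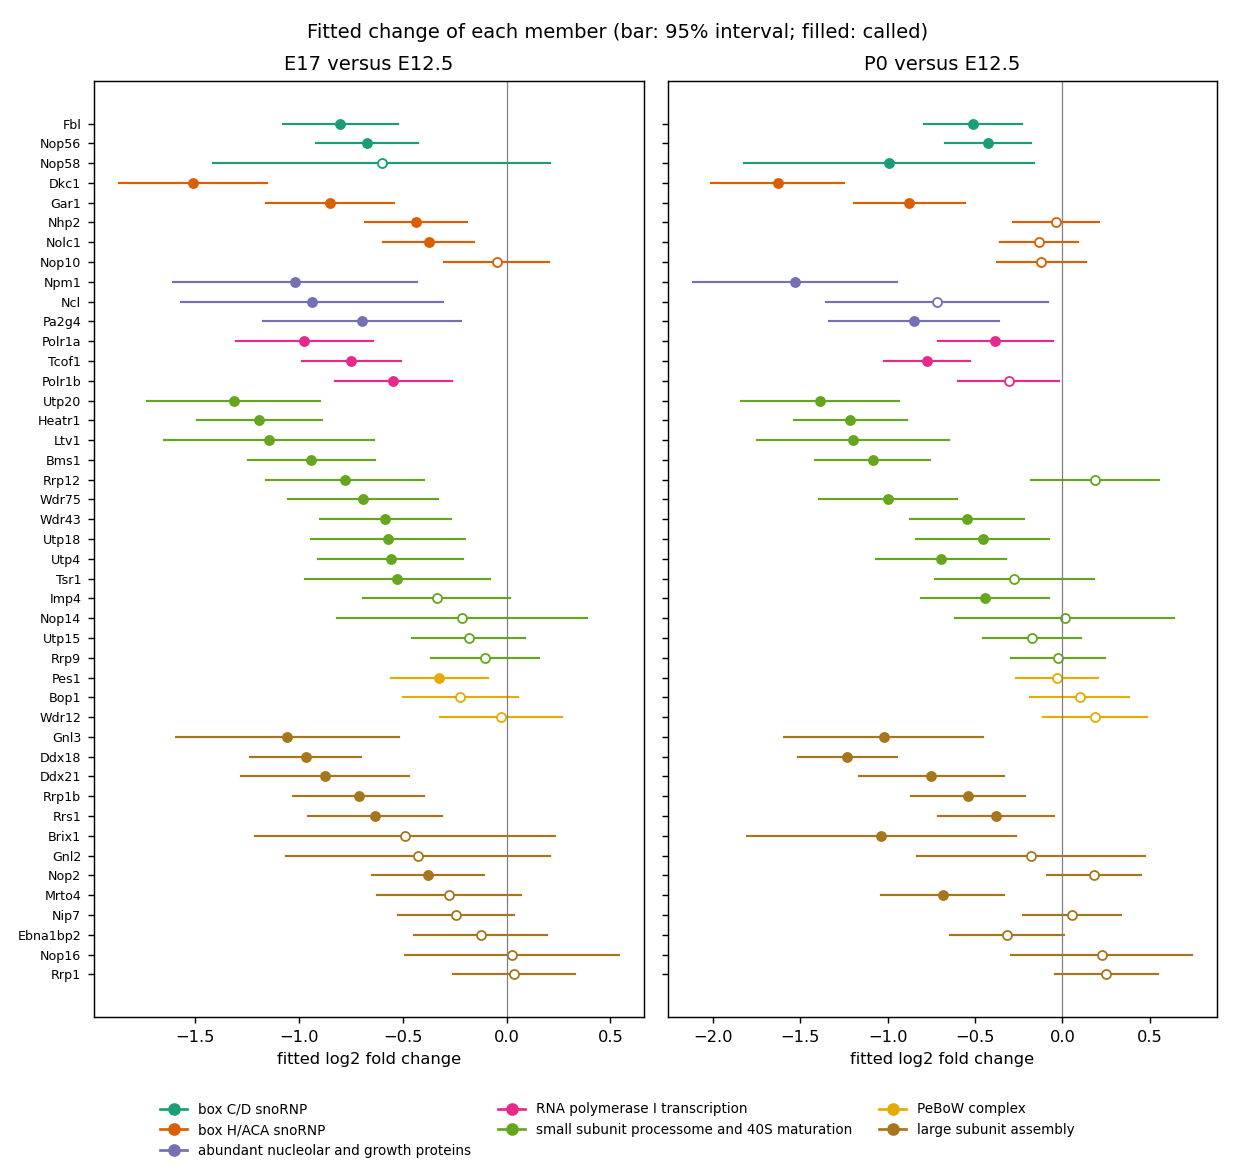
Fitted log2 fold change of each of the 44 members (point) with its 95% interval (bar) at E17 against E12.5 (left) and P0 against E12.5 (right), coloured by role. Filled points passed the test, 29 on the left and 25 on the right, all of them below 0.

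Npm1, Ncl and Pa2g4 are abundant nucleolar and growth proteins, and all 3 were lower at E17, beside 27.8% of all genes tested. Npm1 (ENSMUSG00000057113), a chaperone of the nucleolus and of histones, had 2556 and 2179 CPM at E12.5, 1716 and 1905 CPM at E14, 1372 and 1435 CPM at E15.5, 1158 and 1174 CPM at E17, and 596 and 1139 CPM at P0. The embryonic stages do not overlap, and P0 replicate 1 is far below P0 replicate 2. E17 stood at 0.494 times E12.5, a log2 fold change of -1.02 (SE 0.26, adjusted p = 0.00974 in limma-voom), and the call was lost without E12.5 replicate 1 (adjusted p = 0.0592). Npm1 has processed copies elsewhere in the genome, and reads matching several places were kept, so its level is uncertain.

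Ncl, or nucleolin, which binds the precursor RNA, had 208 and 158 CPM at E12.5, 136 and 131 CPM at E14, 109.6 and 121 CPM at E15.5, 92.9 and 96.5 CPM at E17, and 75.7 and 152 CPM at P0. Its E17 libraries lie below all other embryonic libraries and between the P0 libraries. At E17 it stood at -0.93 against E12.5 (SE 0.27, adjusted p = 0.0194, limma-voom). Pa2g4, a growth-linked protein that also binds the mature large subunit, had 114 and 99.3 CPM at E12.5, 88.7 and 93.2 CPM at E14, 73.0 and 74.8 CPM at E15.5, 64.2 and 66.9 CPM at E17, and 43.7 and 75.2 CPM at P0. Its stages were ordered alike, with -0.69 at E17 against E12.5 (SE 0.21, adjusted p = 0.0208). Both calls were lost without E12.5 replicate 1 or either E17 library, with adjusted p up to 0.113 for Ncl and 0.104 for Pa2g4.

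All 3 members of the RNA polymerase I group were lower at E17, beside 27.8% of all genes tested. Polr1a, the largest subunit of the polymerase, had 6.88 and 7.82 CPM at E12.5, 6.14 and 5.99 CPM at E14, 4.61 and 5.40 CPM at E15.5, 3.46 and 4.09 CPM at E17, and 5.66 and 5.63 CPM at P0. It falls at every embryonic step and at P0 lies between E14 and E15.5, with -0.97 for E17 against E12.5 (SE 0.14, adjusted p = 0.000646, limma-voom) and 0.59 for P0 against E17 (SE 0.15, adjusted p = 0.0282). The second-largest subunit, Polr1b, had 9.30 and 9.42 CPM at E12.5, 9.54 and 8.91 CPM at E14, 8.53 and 7.22 CPM at E15.5, 6.32 and 6.53 CPM at E17, and 7.18 and 7.76 CPM at P0. Its E17 libraries are the lowest, at -0.54 against E12.5 (SE 0.12, adjusted p = 0.00565).

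Tcof1, the treacle protein that assists polymerase I at ribosomal DNA, had 20.5 and 21.4 CPM at E12.5, 20.5 and 18.4 CPM at E14, 15.2 and 15.2 CPM at E15.5, 12.6 and 12.3 CPM at E17, and 12.9 and 11.8 CPM at P0. It was lower at E15.5 than at E14, at -0.35 on the log2 scale (SE 0.10, adjusted p = 0.0274, limma-voom), and reached -0.75 at E17 against E12.5 (SE 0.10, adjusted p = 0.000451), with the P0 libraries on either side of E17.

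Of the 14 members of the small subunit processome and of later 40S maturation, 10 were lower at E17 and 0 higher. Over all genes tested, 27.8% were lower and 26.9% higher. The scaffold proteins Utp20 and Heatr1 were lowest. Utp20 had 2.59 and 2.51 CPM at E12.5, 1.68 and 2.06 CPM at E14, 1.36 and 1.31 CPM at E15.5, 0.984 and 1.05 CPM at E17, and 0.870 and 0.978 CPM at P0, from as few as 8 counts in a library, the fewest of any member. It was at -1.31 (SE 0.18, adjusted p = 0.000442 in limma-voom), and its E17 and P0 libraries lie below all earlier ones.

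Heatr1, a scaffold that also supports polymerase I transcription, had 5.06 and 4.94 CPM at E12.5, 3.67 and 4.02 CPM at E14, 3.16 and 3.08 CPM at E15.5, 2.22 and 2.14 CPM at E17, and 1.96 and 2.20 CPM at P0. Its stages are ordered with no overlap from E12.5 to E17, at -1.19 for the whole interval (SE 0.13, adjusted p = 0.000130, limma-voom), and -0.51 for the step from E15.5 to E17 just missed the threshold (adjusted p = 0.0513). Ltv1, a 40S export and maturation factor, had 11.3 and 9.69 CPM at E12.5, 7.73 and 7.57 CPM at E14, 5.57 and 6.16 CPM at E15.5, 4.51 and 4.92 CPM at E17, and 2.72 and 5.49 CPM at P0. The fall to E17 was -1.14 (SE 0.22, adjusted p = 0.00264), and the P0 libraries lie on either side of E17.

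Bms1, a GTPase of the processome, stood at -0.94 at E17 against E12.5 (SE 0.13, adjusted p = 0.000496, limma-voom) and Wdr75 at -0.69 (SE 0.16, adjusted p = 0.00600). Rrp12, which helps pre-ribosomes leave the nucleus, had 4.68 and 5.12 CPM at E12.5, 4.86 and 4.15 CPM at E14, 3.34 and 3.72 CPM at E15.5, 2.54 and 3.27 CPM at E17, and 5.76 and 5.51 CPM at P0. It fell to -0.78 at E17 (SE 0.17, adjusted p = 0.00442) and at P0 both libraries were above all 8 embryonic libraries. The other members lower at E17 were Wdr43 (-0.58), Utp18 (-0.57), Utp4 (-0.56) and Tsr1 (-0.53), each as log2 fold change. The Utp4 and Utp18 calls were lost without E12.5 replicate 1 or either E17 library (adjusted p up to 0.0670 and 0.104), and the Tsr1 call without any 1 of 8 libraries (up to 0.224). Nop14, Utp15, Rrp9 and Imp4 did not pass. Utp15 had 10.2 and 10.8 CPM at E12.5, 9.19 and 9.51 CPM at E14, 11.0 and 11.4 CPM at E15.5, 9.37 and 9.12 CPM at E17, and 8.16 and 9.98 CPM at P0, with its highest values at E15.5.

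In the PeBoW complex, which processes the RNA of the large subunit, 1 of 3 members was lower at E17. That is near the share over all genes tested, 27.8%. Bop1 had 12.6 and 12.9 CPM at E12.5, 14.1 and 12.9 CPM at E14, 13.02 and 12.3 CPM at E15.5, 10.3 and 11.7 CPM at E17, and 14.9 and 12.98 CPM at P0. Pes1 had 41.5 and 41.2 CPM at E12.5, 38.6 and 38.6 CPM at E14, 36.5 and 35.0 CPM at E15.5, 31.8 and 34.4 CPM at E17, and 37.3 and 43.1 CPM at P0. Wdr12 had 45.7 and 44.3 CPM at E12.5, 35.7 and 39.7 CPM at E14, 43.4 and 43.8 CPM at E15.5, 41.3 and 47.2 CPM at E17, and 45.4 and 56.3 CPM at P0. The E17 libraries of Bop1 and Pes1 lie below all other libraries, while those of Wdr12 overlap E12.5. Pes1 alone passed at E17 against E12.5, at -0.32 (SE 0.10, adjusted p = 0.0259, limma-voom), and it was at 0.092 with total counts and lost its call without any 1 of 7 libraries (adjusted p up to 0.157). Bop1 was at -0.22 with a 95% interval of -0.50 to 0.056 (adjusted p = 0.154; 0.19 with total counts) and Wdr12 at -0.027 with -0.32 to 0.27 (adjusted p = 0.870; 0.39 with total counts and 0.073 without E17 replicate 1).

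Of the 13 members that assemble the large subunit, 6 were lower at E17 and 0 higher, beside 27.8% and 26.9% of all genes tested. Gnl3, the nucleolar GTPase nucleostemin, which is known from stem and progenitor cells, had 14.03 and 10.9 CPM at E12.5, 8.22 and 10.05 CPM at E14, 5.996 and 7.52 CPM at E15.5, 5.59 and 6.23 CPM at E17, and 4.13 and 7.14 CPM at P0. Its E12.5 libraries are above all others, and E17 stood at 0.481 times E12.5, or -1.06 on the log2 scale (SE 0.23, adjusted p = 0.00528, limma-voom). The RNA helicases Ddx18 and Ddx21 were lower too. Ddx18 had 18.6 and 17.9 CPM at E12.5, 14.7 and 14.3 CPM at E14, 13.2 and 12.8 CPM at E15.5, 9.43 and 9.24 CPM at E17, and 6.63 and 8.40 CPM at P0. It was at -0.97 at E17 against E12.5 (SE 0.12, adjusted p = 0.000208) and -0.48 at the step from E15.5 (SE 0.12, adjusted p = 0.0420), and P0 lies below E17 in both libraries.

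Ddx21 had a log2 fold change of -0.87 at E17 (SE 0.18, adjusted p = 0.00325, limma-voom). Rrp1b had 6.82 and 7.63 CPM at E12.5, 6.67 and 7.26 CPM at E14, 4.67 and 5.24 CPM at E15.5, 4.45 and 4.39 CPM at E17, and 5.66 and 4.70 CPM at P0. It was lower from E15.5 on, at -0.50 for the step from E14 (SE 0.13, adjusted p = 0.0201) and -0.71 at E17 against E12.5 (SE 0.14, adjusted p = 0.00270). Rrs1, which brings 5S ribosomal RNA into the pre-60S particle, had 16.996 and 18.7 CPM at E12.5, 20.0 and 18.0 CPM at E14, 13.1 and 14.7 CPM at E15.5, 11.7 and 11.3 CPM at E17, and 16.1 and 12.4 CPM at P0. Its values split in the same way between E14 and E15.5, at -0.45 (SE 0.14, adjusted p = 0.0329), and E17 stood at -0.63 against E12.5 (SE 0.14, adjusted p = 0.00551). Nop2, a ribosomal RNA methyltransferase and a classic proliferation antigen, had 9.85 and 9.57 CPM at E12.5, 9.67 and 8.78 CPM at E14, 8.74 and 10.01 CPM at E15.5, 7.43 and 7.51 CPM at E17, and 10.7 and 11.2 CPM at P0. It was lowest at E17, at -0.38 against E12.5 (SE 0.12, adjusted p = 0.0246) but 0.040 with total counts, and the call was lost without any E12.5 or E17 library (adjusted p up to 0.107).

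The remaining 7 large subunit members did not pass at E17. Rrp1 had 58.6 and 52.7 CPM at E12.5, 58.8 and 55.7 CPM at E14, 57.7 and 62.3 CPM at E15.5, 56.5 and 57.3 CPM at E17, and 58.0 and 73.7 CPM at P0. Nop16 had 82.7 and 80.9 CPM at E12.5, 75.6 and 87.9 CPM at E14, 79.7 and 79.6 CPM at E15.5, 83.0 and 83.3 CPM at E17, and 69.8 and 125 CPM at P0. Both stayed near their E12.5 level throughout the embryo, at 0.036 (95% interval -0.26 to 0.33) and 0.025 (95% interval -0.49 to 0.54) at E17 against E12.5, and both were just below 0 with total counts outside histone genes, as Rrp1 was without E12.5 replicate 2 (-0.044). Brix1, which helps assemble the pre-60S particle, had 32.5 and 26.1 CPM at E12.5, 20.5 and 25.0 CPM at E14, 20.9 and 24.0 CPM at E15.5, 19.9 and 21.4 CPM at E17, and 7.94 and 20.0 CPM at P0. Its first P0 library is far below all others, and its E17 libraries lie below E12.5 without passing. Ebna1bp2, Gnl2, Nip7 and Mrto4 likewise had both E17 libraries below both E12.5 libraries without passing.

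At P0 against E12.5, 25 of 44 members were lower and 0 higher in limma-voom, beside 32% of all genes lower and 30.1% higher. By edgeR 23 were lower and by DESeq2 22. In limma-voom 27 members had an unadjusted p under 0.05, as did 8946 of all 13484 genes tested. With total counts 8 members were lower and 13 higher, beside 18.6% of all genes lower and 47.8% higher. The median of all genes then moved to 0.51. That of the members was 0.078 with total counts and -0.45 with TMM factors. Dkc1 (-1.63, SE 0.17, adjusted p = 5.75e-05) and Npm1 (-1.53, SE 0.25, adjusted p = 0.000940) were lowest. Of the 44 members, 21 were lower at both E17 and P0, 8 at E17 alone, 4 at P0 alone and 11 at neither. The 2 comparisons share the E12.5 libraries, which favours calls in both for any gene. This split was not counted over all genes, so the 21 are not read as particular to the members. Of the 25 calls at P0, 8 held under all 10 other settings, and that of Rrs1 held under 1 of the 10. Of the 25, 16 held whichever library was left out. Among the 21, the P0 calls of Rrs1, Polr1a, Utp18, Nop56, Rrp1b and Wdr43 were lost without single libraries. For Rrs1, Polr1a and Utp18 the log2 fold changes over these fits ran from -0.52 to -0.11, from -0.47 to -0.29 and from -0.68 to -0.29. Those lower at P0 alone were Nop58, Imp4, Brix1 and Mrto4, of which only Mrto4 kept its call without each library in turn (adjusted p up to 0.168 for Nop58, 0.123 for Imp4 and 0.112 for Brix1). Those lower at E17 alone were Nhp2, Nolc1, Ncl, Polr1b, Tsr1, Rrp12, Pes1 and Nop2. Without P0 replicate 1, 21 members were lower and 4 higher, and without P0 replicate 2, 27 and 0, beside 33.4% of all genes lower and 35.1% higher in the first of these fits and 31.7% and 32.1% in the second.

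From E17 to P0 the members showed no common direction, and the sign of their median depended on which P0 library was kept. Limma-voom called 4 members higher and 0 lower, beside 9.46% of all genes higher and 11.1% lower. By edgeR 4 were higher and by DESeq2 3, with 0 lower by either. An unadjusted p under 0.05 in limma-voom was reached by 10 members and by 4839 of all 13484 genes tested. The median of the members was 0.096. Rrp12, whose P0 values stand above, rose by 0.96 (SE 0.17, adjusted p = 0.00676), Polr1a by 0.59, Nop2 by 0.56 (SE 0.12, adjusted p = 0.0144) and Nhp2 by 0.40 on the log2 scale. For Rrp12, without E17 replicate 1 the adjusted p was 0.0708 and its call was lost. The other 3 calls were lost without either E17 library, those of Polr1a and Nhp2 also without others (adjusted p up to 0.103 for Nop2, 0.197 for Polr1a and 0.227 for Nhp2). At the other end, Brix1 was at -0.55 (95% interval -1.32 to 0.23) and Npm1 at -0.51 (95% interval -1.09 to 0.069), neither of which passed.

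The P0 libraries differed from each other more than those of any other stage, over genes at large as well as the members. The SD of the log2 ratio of replicate 2 to replicate 1 over the 44 members was 0.44 at P0 and between 0.098 and 0.15 at the 4 embryonic stages. Over 4559 genes whose mean count reached 500, it was 0.53 at P0 and between 0.13 and 0.22 at the embryonic stages. Replicate 2 was higher in 33 of 44 members, with a median log2 ratio of 0.33. P0 replicate 1 lay below both E17 libraries in 25 members, against 47.3% of all genes tested, and P0 replicate 2 above both in 29, against 44.5%. Without P0 replicate 1, 0 members were lower and 15 higher than at E17, beside 15.9% of all genes lower and 16.1% higher. Without P0 replicate 2, 8 were lower and 6 higher with a median of -0.12, beside 16.2% of all genes lower and 17.5% higher, so these 2 counts lie near the background. P0 replicate 1 also has the fewest counts, 7544404, and whether depth plays a part was not tested.

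**Figure D4:**
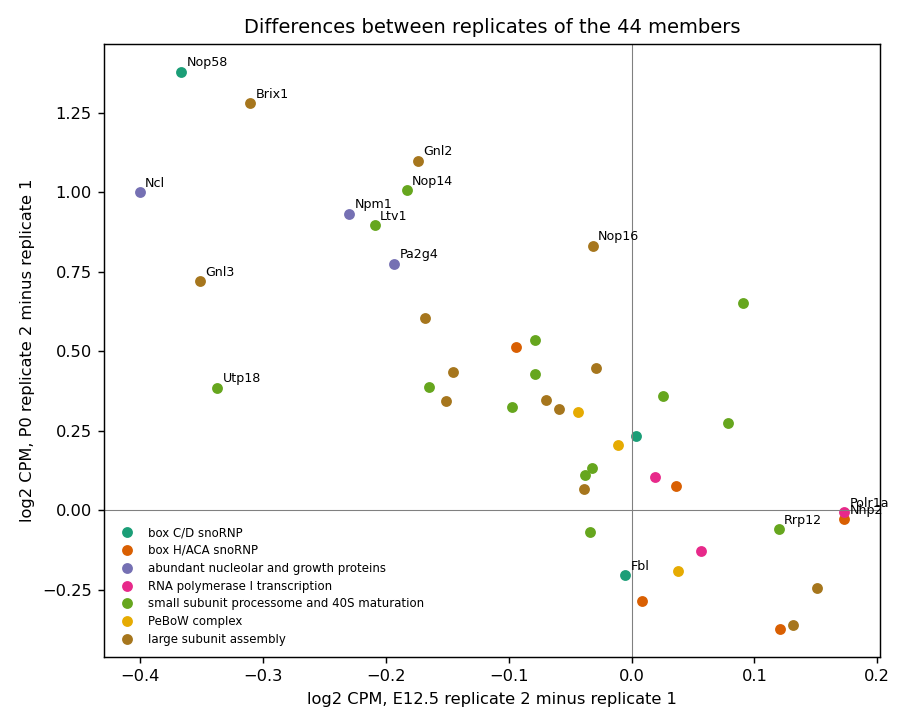
Difference in log2 CPM between replicate 2 and replicate 1 of each of the 44 members, at E12.5 (horizontal axis) and at P0 (vertical axis), coloured by role. Nop58 and Brix1 differ most at P0, while Rrp12, Polr1a and Nhp2, which were called higher at P0 than at E17, lie near 0 there.

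Sequence around the start site was read because most members moved in 1 direction. Promoters, from 250 bases before to 50 bases after each annotated start, were taken from RefSeq (GRCm38.p6), where 37 of the 44 members had an entry. The letters CACGTG, an E-box that reads the same on both strands and is bound by Myc-type factors, occurred in 9 of these 37 members (24.3%), beside 8.09% of all genes with a promoter entry and 11.4% of the genes tested. Of the members lower at E17, 8 of 24 held it (33.3%), and of those not called 1 of 13 (7.69%), Imp4. This split rests in part on calls that were lost when single libraries were left out, those of Utp4, Utp18, Tsr1, Pes1 and Nop2. The letters CCGGAAG or, on the other strand, CTTCCGG, a match to the ETS family motif, occurred in 13 of 37 members (35.1%), beside 9.93% of all genes and 19.4% of the genes tested. Of the members lower at E17, 10 of 24 held the ETS letters (41.7%), and of those not called 3 of 13 (23.1%). No test was made, and a match is neither a site nor a cause. The windows of all 8 members that hold the E-box and were lower at E17 are shown with it in capitals, 5′ to 3′ on the strand of the gene.

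Utp4, chr8:106893643-106893672, plus strand: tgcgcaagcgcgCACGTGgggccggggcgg
Utp18, chr11:93885769-93885798, minus strand: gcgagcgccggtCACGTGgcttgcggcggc
Utp20, chr10:88826765-88826794, minus strand: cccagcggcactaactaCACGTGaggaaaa
Wdr43, chr17:71616220-71616249, plus strand: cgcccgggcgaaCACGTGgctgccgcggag
Tsr1, chr11:74898092-74898121, plus strand: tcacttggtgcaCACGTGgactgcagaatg
Ltv1, chr10:13193092-13193121, minus strand: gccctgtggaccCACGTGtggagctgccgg
Pes1, chr11:3963965-3963994, plus strand: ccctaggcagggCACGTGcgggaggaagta
Nop2, chr6:125131811-125131840, plus strand: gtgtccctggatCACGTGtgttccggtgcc

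In these 8 promoters the E-box lies close to the start site, with its first base 37 bases after it at most, and in Utp18 and Nop2 before it. Over the 9 members with an E-box, 8 hold it within 100 bases of the start. At E17 against E12.5 the log2 fold changes of the 8 genes shown ran from -1.31 for Utp20 to -0.32 for Pes1, and Dkc1, with the largest fall, has no such letters in the window read.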

How the data were processed

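Ribosome-protected fragments were sequenced from 10 neocortex libraries, 2 at each of 5 stages, and each replicate was an independent pool of brains. The authors deposited a table of whole-number footprint counts per gene, not scaled for depth. Per the study's methods, reads from tRNA, rRNA and snoRNA were removed, the rest were aligned with STAR to coding transcripts and the genome of GENCODE release M12, and reads with several matches were kept. The submitters' processing notes name STAR 2.7.0, while the methods name an earlier version. The methods give DeepShape-prime and tximport for length-corrected gene-level counts, and whether this whole-number table came from them is not stated.

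Of 22373 identifiers, 22274 matched a symbol. A gene was kept if the 2 libraries of any stage together held 32 footprints or more, which left 13484 genes. The counts were fitted in R 4.3.3 with limma-voom (limma 3.58.1) and TMM factors (edgeR 4.0.16), with 1 coefficient per stage over all 10 libraries. The study's methods name voom, applied to length-corrected counts, and the scaling and stage model used here were chosen for this table. Tests were two-sided with Benjamini-Hochberg adjustment over all genes kept, and a call needed an adjusted p under 0.05 and a fold of at least 1.25 (no fold threshold for the contrast of the E15.5 step with the other steps). CPM values use TMM-scaled library sizes and are not divided by gene length, so they compare libraries and not genes. The code was tested on simulated data.

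CPM in every library is printed for snoRNP, abundant nucleolar, polymerase I and PeBoW members and for the 2 lowest and 2 highest fold changes of each planned comparison, and others are given by fold changes, ranges and counts. Utp20, Gnl3 and Nop2 were chosen for full values after they were seen. The members and the gene lists were chosen with earlier results of these data known. Alternatives were edgeR quasi-likelihood, DESeq2 (1.42.0), other library scalings and filters, sample quality weights, a replicate block, fits of only the compared stages, and leaving out each library. Depth ran from 7544404 to 36129988 counts, and the member with the fewest counts had 8 in a library.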

Additional observations from a re-analysis of the deposited data

How the results depend on the processing

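With total counts in place of TMM factors, medians shifted upward. At E14 against E12.5 the median was -0.10. At E15.5 against E14, 1 member was lower (12.3% of all genes) and 5 higher (32.7%), with a median of 0.13. At E17 against E15.5, 0 were lower (2.64%), with a median of -0.20. At P0 against E17, 9 were higher (13.6%). At P0 against E12.5, 8 were lower (18.6%) and 13 higher (47.8%), with a median of 0.078. At E17 against E12.5, 12 were lower (15.9%) and 3 higher (43.6%), with a median of -0.16. The number of members below 0 went from 36 to 20 at P0 against E12.5 and from 42 to 29 at E17 against E12.5. Among members called or given with a value, the sign changed at P0 against E12.5 for Fbl (0.017), Nop56 (0.10), Polr1a (0.14), Utp18 (0.072), Imp4 (0.084) and Rrs1 (0.14), and at E17 against E12.5 for Nolc1 (0.041), Pes1 (0.092), Nop2 (0.040), Nop10 (0.37), Bop1 (0.19) and Wdr12 (0.39). With totals outside histone genes, Nop16 was at -0.013 and Rrp1 at -0.0021 at E17 against E12.5. With the same totals 3 members were lower at E17 against E15.5 (3.66% of all genes). The scaling shift accounts for the medians by construction. Relative to all genes, the median at E17 against E12.5 lay at -0.56 with TMM factors, with total counts and with totals outside histone genes. Without a filter on low counts, which changes the genes compared and not only the scaling, it lay at -0.40. Elsewhere the cause was not tested.

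Percentages in parentheses here are shares of all genes in the same fit and direction. Sample quality weights gave 1 member lower at E14 against E12.5 (1.88%) and 11 at E15.5 against E14 (25.3%). They gave 7 lower at E17 against E15.5 (11.4%) and 0 higher at P0 against E17 (2.95%). In the step contrast they gave 4 lower (12.1%) and 1 higher (12.6%). DESeq2 gave 4 lower at E15.5 against E14 (15.6%) and 0 at E17 against E15.5 (3.08%). Without a filter, 0 were lower at E17 against E15.5 (1.4%) and 2 higher at P0 against E17 (5.88%). The step contrast then gave 0 lower (3.88%) and 0 higher (2.71%). Fits of only the compared stages gave 6 lower at E17 against E15.5 (11.1%) and 0 higher at P0 against E17 (0%). They gave 12 lower at P0 against E12.5 (22.8%).

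Without each library in turn, members lower ran from 0 to 4 at E14 against E12.5, 0 to 10 at E15.5 against E14, 0 to 5 at E17 against E15.5, 0 to 8 at P0 against E17, 18 to 27 at P0 against E12.5 and 20 to 32 at E17 against E12.5, and 0 to 7 were called in the step contrast. Members higher ran from 0 to 15 at P0 against E17 and 0 to 4 at P0 against E12.5. Medians ran from -0.12 to 0.21 at P0 against E17, -0.63 to -0.34 at P0 against E12.5 and -0.64 to -0.54 at E17 against E12.5. At E17 against E12.5, Rrp1 ran from -0.044 to 0.11, and Wdr12 was at 0.073 without E17 replicate 1.

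Replicate numbers are shared across stages, and no label ties a number to a shared batch or day. Over 4559 genes, deviations of same-numbered libraries correlated between -0.64 and -0.11 in the 4 pairs of stages with E12.5, between 0.21 and 0.43 in 5 of the other 6 pairs, and at -0.044 between E14 and E17. Same-numbered libraries thus deviated together in some pairs but not in all, not every library correlated best with its own number, and the numbers were not used as pairs in the report. With a replicate block, 7 members were lower at E15.5 against E14 (18.4% of all genes) and 0 at E17 against E15.5 (2.19%). At P0 against E12.5, 23 were lower (30.5%), and at E17 against E12.5, 28 (26.8%). At P0 against E17, 3 were higher (7.3%). In the step contrast 0 were lower (4.64%) and 0 higher (3.72%). Depth limits Utp20 most, with 8 counts in P0 replicate 1.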

Other observations

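Members that differed between the P0 libraries tended to differ between the E12.5 libraries in the opposite direction, with exceptions such as Tsr1. Across the 44 members, the log2 ratio of replicate 2 to replicate 1 at E12.5 had a Pearson correlation of -0.79 and a Spearman correlation of -0.79 with the same ratio at P0, and across 4559 genes whose mean count reached 500 these were -0.64 and -0.65. Genes are not independent replicates, so no p is given. Ncl had 208 and 158 CPM at E12.5 and 75.7 and 152 CPM at P0. Brix1 had 32.5 and 26.1 CPM at E12.5 and 7.94 and 20.0 CPM at P0. Nhp2 leaned the other way at E12.5, with 35.5 and 40.1 CPM, and had 37.3 and 36.6 CPM at P0. The smaller the level in P0 replicate 1 against its partner, the lower E12.5 replicate 2 tended to lie against replicate 1, and the source of this was not tested.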
